A study of Mus musculus with 10 samples.

Results

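The natriuretic peptide system of the heart was followed here through 6 genes: Nppa and Nppb, which encode the peptide hormones ANP and BNP, Corin, which encodes the protease that activates ANP, and Npr1, Npr2 and Npr3, which encode the receptors. The genes were chosen by symbol, and all 6 were among the 21513 genes of the deposited count table and among the 15740 that passed the filter on low counts. Polyadenylated RNA was sequenced from primary heart cells of WT mice aged P1-P3, in 10 libraries that form 5 groups of 2. One group is cardiac fibroblasts (CF) of day 14. The induced cardiomyocyte-like cells (iCM) of day 14 carry MGT, that is Mef2c, Gata4 and Tbx5, and received the solvent DMSO, ZLN005, which activates transcription of Ppargc1a, or GW501516, which activates the nuclear receptor PPARδ. The last group is primary cardiomyocytes (CM) of day 3, so day and cell type cannot be told apart in comparisons with CM. Doses and the delivery of MGT are not given in the sources used.

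ANP and BNP are released by heart muscle cells under stretch and lower blood pressure and volume. Corin sits on the surface of cardiomyocytes and cuts the ANP precursor to its active form. Both hormones act through NPR-A, the product of Npr1, a membrane guanylyl cyclase that makes cyclic GMP, while NPR-B, the product of Npr2, is the related receptor for CNP, and NPR-C, the product of Npr3, removes all of these peptides from the circulation. In the mouse, Nppa is made in the atria and the embryonic ventricles and falls in the ventricle around birth, and both peptide genes return in ventricular muscle under load, so they serve as markers of fetal and stressed heart muscle.

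Total counts lay between 39065969 and 61886463 per library, and levels are given as CPM, counts scaled to the library size after TMM normalization. Whether a group's libraries come from different animals or cultures is not stated in the labels, so the p-values may reflect technical spread alone. Values after ± are standard errors of the fitted log2 difference. The titles of the CM samples name cardiomyocytes while their cell type and treatment entries repeat those of the fibroblasts. The titles were used, and the mean level of Myh6, which encodes alpha myosin heavy chain, was 9647 CPM in CM against 40.2 CPM in CF. The CM libraries also held RNA of fibroblast markers, with a summed level over 11 genes of 17836 to 18084 CPM against 51653 to 58885 CPM in CF, and 8.27 CPM of the ventricular myosin light chain Myl2 was present in CF. In bulk RNA, fewer cells of a type and less RNA per cell cannot be told apart. The CF libraries stood apart from each other in macrophage and leukocyte markers, whose summed level over 14 genes was 3248 CPM in replicate 1 and 545 CPM in replicate 2.

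Nppb and Nppa lie next to each other on mouse chromosome 4 of GRCm38 (mm10), on the plus strand, Nppb from 147985788 to 147987205 and Nppa from 148000722 to 148002079, with 13516 bases between them. Corin lies on chromosome 5 from 72300025 to 72504473, Npr1 on chromosome 3 from 90450591 to 90465866 and Npr3 on chromosome 15 from 11839896 to 11907287, all on the minus strand, and Npr2 on chromosome 4 from 43631935 to 43651244 on the plus strand. In the GENCODE annotation, genes on the opposite strand cover 532 of the 865 exon bases of Nppa, 559 of the 4783 of Npr1, 321 of the 9389 of Npr3, 266 of the 4667 of Npr2 and 147 of the 5400 of Corin, and none of the 781 of Nppb. The sources used here do not give the strand setting of the counting. Whether reads over these shared bases were counted for the member, for its partner or for neither is thus not known.

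The promoters of both peptide genes are shown because Nppa and Nppb are neighbours, were the highest members in CM, and ranked the groups in different orders. Each run is the 250 bases before the RefSeq start of the gene on GRCm38, plus strand, Nppb at chr4:147985650-147985899 and Nppa at chr4:148000472-148000721. The GENCODE record of Nppb begins inside its window. Capitals mark matches, searched for on both strands, to the GATA motif GATAA, the T-box motif spelled GGTGTGA, the M-CAT motif spelled GGAATG and the TATA box spelled TATAAA.
Nppb: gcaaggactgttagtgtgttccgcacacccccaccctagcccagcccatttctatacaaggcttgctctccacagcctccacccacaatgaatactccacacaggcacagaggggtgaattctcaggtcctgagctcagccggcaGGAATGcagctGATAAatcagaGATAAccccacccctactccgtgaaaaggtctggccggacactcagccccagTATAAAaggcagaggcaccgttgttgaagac
Nppa: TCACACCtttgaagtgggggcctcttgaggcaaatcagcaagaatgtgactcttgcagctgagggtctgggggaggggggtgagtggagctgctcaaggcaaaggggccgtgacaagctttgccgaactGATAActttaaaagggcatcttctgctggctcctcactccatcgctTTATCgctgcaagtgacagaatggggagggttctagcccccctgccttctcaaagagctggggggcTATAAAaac
Both windows held 2 GATA matches, at -94 to -90 and -83 to -79 from the start in Nppb and at -121 to -117 and -75 to -71 in Nppa, the last on the minus strand. Nppb had the M-CAT match at -105 to -100, and Nppa the T-box match, on the minus strand, at -250 to -244. Of 32851 RefSeq promoter windows of the same length, 22.6% held GATAA, 3.33% GGTGTGA, 12.6% GGAATG and 12.4% TATAAA. RefSeq windows were found for all 6 genes, and those of Corin, Npr1, Npr2 and Npr3 held no match to these motifs, to AAGTG (the NKE motif, with matches in Nppa that are left in lower case), to the CArG box, to AGGTCANAGGTCA (the DR1 motif) or to TNAAGGTCA (the ERR motif). A match is a description of letters and not a binding site.

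Across all groups, the peptide genes and Corin came apart. Nppa and Nppb stayed below 0.3% of their CM level in every iCM group, while Corin reached 75.4% of it with DMSO, 87.4% with ZLN005 and 146% with GW501516. With both compounds Nppa fell and Corin rose in the same libraries, the rise of Corin with ZLN005 lying close to the threshold. Among the receptors, Npr2 and Npr3 were lower in CM than in the other groups, and Npr1 rested on few reads in every group.

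**Figure D1:**
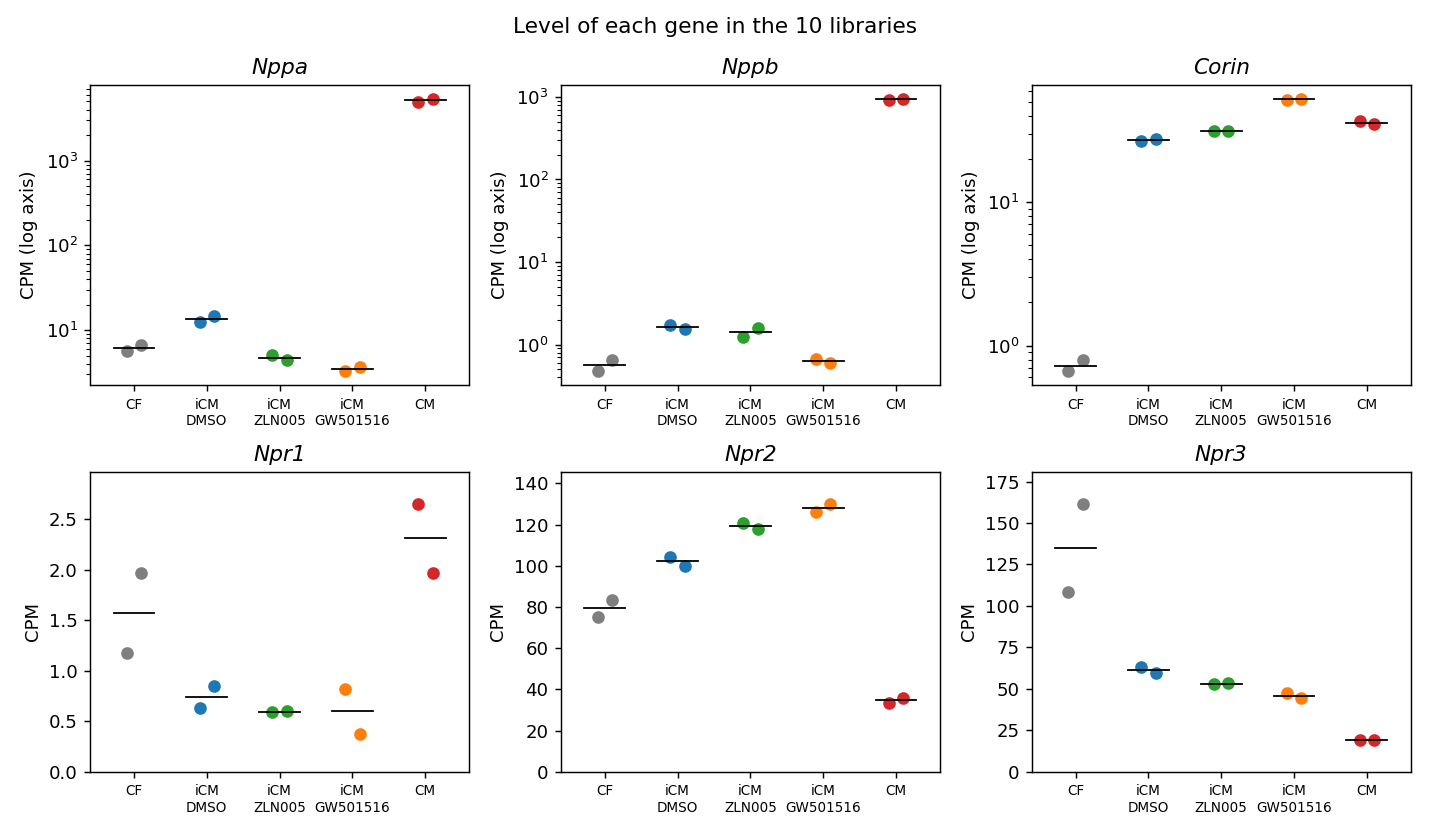
Level of each gene in CPM (vertical axis) in the 10 libraries (points) of the 5 groups, with the mean of 2 libraries as a line. The upper row (Nppa, Nppb, Corin) has log axes and the lower row (Npr1, Npr2, Npr3) linear axes from 0. Nppa and Nppb stand high in CM at 5194.5 and 937 CPM on average, and Corin stands high in all groups other than CF.

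Nppa, the gene of the ANP precursor, was read in CF at 5.65 and 6.65 CPM and in iCM with DMSO at 12.3 and 14.8 CPM. With ZLN005 its level was 5.05 and 4.41 CPM, and with GW501516 it was 3.26 and 3.64 CPM. The CM libraries held 4987 and 5402 CPM. The groups thus ran, from low to high, GW501516, ZLN005, CF, DMSO and CM, and the libraries of no pair of groups overlapped. With 2 libraries a group, such a lack of overlap, here and for the genes below, is a description without a test. Its share over all genes was not counted. Nppa with ZLN005 and with GW501516 did not overlap, yet their difference was not called (edgeR adjusted p = 0.147). The rise from CF to iCM with DMSO was 1.14 ± 0.11 on the log2 scale (edgeR quasi-likelihood test, Benjamini-Hochberg adjusted p = 1.6e-05). From iCM with DMSO, Nppa fell by 1.53 ± 0.12 with ZLN005 (edgeR adjusted p = 2.7e-05) and by 1.98 ± 0.13 with GW501516 (edgeR adjusted p = 8.5e-06). These falls also took it below the fibroblast level, by 0.83 ± 0.14 with GW501516 (edgeR adjusted p = 0.00065). For ZLN005 against CF the log2 difference was -0.39 ± 0.13 (edgeR adjusted p = 0.0293), a call that was lost without CF replicate 2 and without ZLN005 replicate 2, in limma-voom, without the CM libraries and with the compared groups alone, where alternatives gave adjusted p from 0.00091 to 0.224.

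Nppb, the gene of the BNP precursor, was weaker and rested on few reads outside CM. In CF it was read at 0.472 and 0.656 CPM, from 30 and 40 counts, and in iCM with DMSO at 1.71 and 1.55 CPM, from 92 and 77 counts. ZLN005 gave 1.24 and 1.59 CPM, from 50 and 93 counts, and GW501516 gave 0.677 and 0.602 CPM, from 28 and 24 counts. The CM libraries held 919 and 956 CPM. Nppb with ZLN005 overlapped the DMSO libraries, and Nppb with GW501516 overlapped the fibroblasts. It rose from CF to iCM with DMSO by 1.53 ± 0.17 on the log2 scale (edgeR adjusted p = 4.1e-05). From DMSO it fell by 1.35 ± 0.19 with GW501516 (edgeR adjusted p = 0.00098), and with ZLN005 the log2 difference was -0.18 ± 0.15 (edgeR adjusted p = 0.516, not called, 95% interval -0.51 to 0.15). Against CF it was higher with ZLN005 by 1.35 ± 0.18 (edgeR adjusted p = 0.00010), whereas with GW501516 the log2 difference was 0.19 ± 0.23 (edgeR adjusted p = 0.578).

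The balance of the peptide genes within a library followed from these levels. The log2 ratio of Nppa to Nppb counts, with 2 added to each count, was 3.50 and 3.28 in CF and 2.82 and 3.22 in iCM with DMSO. After ZLN005 it was 1.99 and 1.45, after GW501516 it was 2.19 and 2.50, and in CM it was 2.44 and 2.50. The ZLN005 libraries were the lowest and the CF libraries the highest, and the GW501516 libraries spanned those of CM. With 2 libraries a group the ratio is a description without a test.

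**Figure D2:**
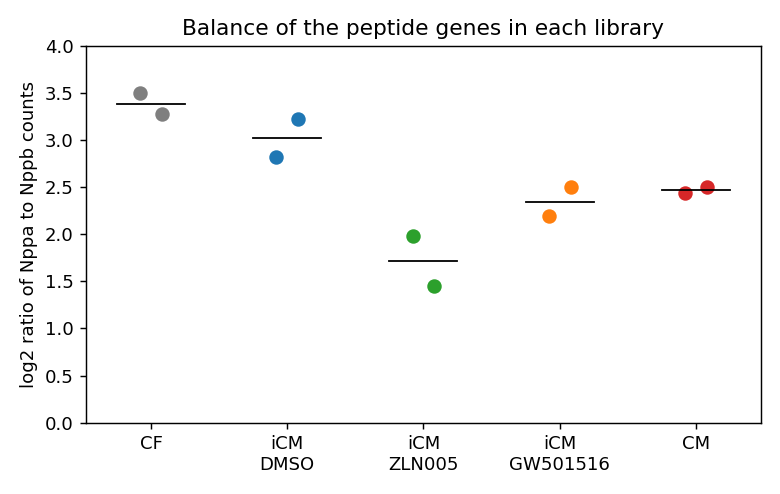
Log2 ratio of Nppa to Nppb counts, with 2 added to each count (vertical axis), in each library (points), with the mean of each group of 2 as a line. The ZLN005 libraries lie lowest at 1.99 and 1.45, and the CF libraries highest at 3.50 and 3.28.

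Corin, the convertase of the ANP precursor, was faint in fibroblasts and strong in iCM and primary cardiomyocytes. The CF libraries held 0.661 and 0.788 CPM, from 42 and 48 counts. iCM held 26.7 and 27.4 CPM after DMSO, 31.6 and 31.2 CPM after ZLN005 and 51.9 and 52.8 CPM after GW501516, and CM held 36.7 and 35.1 CPM. The 5 groups did not overlap, and GW501516 stood above CM. From CF to iCM with DMSO, Corin rose by 5.22 ± 0.09 on the log2 scale, which is 37.3-fold (edgeR adjusted p = 2.3e-11) and the 80th largest of 15740 fitted changes on the rising side. It rose further with GW501516, by 0.95 ± 0.06 (edgeR adjusted p = 7.8e-06). With ZLN005 the rise was 0.21 ± 0.06 (edgeR adjusted p = 0.0438), close to the threshold, and it was lost in DESeq2, without the filter, without the CM libraries, with the replicate block and whenever any of the 4 libraries compared was left out, where adjusted p lay from 0.136 to 0.180. Over all alternatives that adjusted p ran from 0.00745 to 0.180. Against CM, Corin with GW501516 was higher by 0.54 on the log2 scale (edgeR adjusted p = 1.9e-05), the CM minus GW501516 value being -0.54 ± 0.06.

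Npr1, the gene of the shared ANP and BNP receptor, had 15 to 120 counts per library. Per kilobase it was the lowest of the 6 genes in the iCM groups and CM, while in CF Corin was lower. CF had 1.18 and 1.97 CPM, DMSO 0.633 and 0.846 CPM, ZLN005 0.595 and 0.599 CPM, GW501516 0.822 and 0.376 CPM and CM 2.65 and 1.97 CPM. The iCM libraries were all below those of CF and CM, and the GW501516 libraries lay on either side of the ZLN005 and DMSO means. In iCM with DMSO the fall from CF was 1.09 ± 0.39 on the log2 scale (edgeR adjusted p = 0.0470). That call was lost in DESeq2 (adjusted p = 0.0576), in limma-voom, with the replicate block, without the CM libraries, with the compared groups alone and without CF replicate 2 (0.213), DMSO replicate 1 (0.233) or DMSO replicate 2 (0.0953), and alternatives gave adjusted p from 0.00558 to 0.233. Neither compound changed it detectably at this depth, with log2 differences from DMSO of -0.31 ± 0.41 for ZLN005 (edgeR adjusted p = 0.698) and -0.30 ± 0.42 for GW501516 (edgeR adjusted p = 0.706). The 95% intervals were wide, from -1.23 to 0.61 and from -1.23 to 0.64.

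Npr2, the gene of the CNP receptor, was higher in iCM than in fibroblasts and lowest in CM. CF held 75.1 and 83.5 CPM, DMSO 104 and 100.01 CPM, ZLN005 121 and 118 CPM, GW501516 126 and 130.05 CPM and CM 33.6 and 36.0 CPM. No groups overlapped, although the steps were small. It rose by 0.37 ± 0.06 on the log2 scale from CF to iCM with DMSO (edgeR adjusted p = 0.00048) and by 0.33 ± 0.06 more with GW501516 (edgeR adjusted p = 0.0040). ZLN005 gave a rise of 0.22 ± 0.06 over DMSO (edgeR adjusted p = 0.0245) that was lost whenever any of the 4 libraries compared was left out, with adjusted p from 0.0562 to 0.163 there and from 0.00016 to 0.163 over all alternatives. Its peptide ligand CNP, encoded by Nppc, had 24 and 16 counts in the CF libraries and 0 to 4 counts in the others.

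Npr3, the gene of the clearance receptor, ran the other way, highest in fibroblasts. Its level was 109 CPM in CF replicate 1 and 162 CPM in CF replicate 2, then 63.2 and 59.8 CPM after DMSO, 52.7 and 53.4 CPM after ZLN005, 47.4 and 44.3 CPM after GW501516 and 19.4 CPM in each CM library. The groups did not overlap, and the CF libraries differed from each other more than those of any iCM group. From CF to iCM with DMSO it fell by 1.13 ± 0.14 on the log2 scale (edgeR adjusted p = 8.5e-05), and by 1.39 without CF replicate 1 and by 0.82 without CF replicate 2. Macrophage markers were higher in the CF library with the lower Npr3, and their part in the result was not tested. Endothelial and endocardial markers, summed over 11 genes, were 173 to 205 CPM in CF, 140 to 160 CPM over the iCM groups and 238 to 255 CPM in CM. Fibroblast markers, summed over 11 genes, were lower in every other group than in CF, at 31782 to 32967 CPM after DMSO, 19082 to 19732 CPM after ZLN005 and 26379 to 26850 CPM after GW501516, beside the CF and CM ranges given above. The part of either list in the result was not tested.
Npr3 did not pass the threshold with either compound, the log2 differences from DMSO being -0.21 ± 0.14 for ZLN005 (edgeR adjusted p = 0.372) and -0.42 ± 0.14 for GW501516 (edgeR adjusted p = 0.0765). Both were called when the CF libraries were left out of the fit, where the adjusted p was 0.00402 for ZLN005 and 3.4e-06 for GW501516, and in the fit of the compared groups alone, at 0.0021 for ZLN005 and 1.4e-05 for GW501516. GW501516 was also called in DESeq2 (0.0061), without the filter (0.0035) and with plain totals (0.0401). Alternatives gave adjusted p from 0.0021 to 0.668 for ZLN005 and from 3.4e-06 to 0.291 for GW501516.

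**Figure D3:**
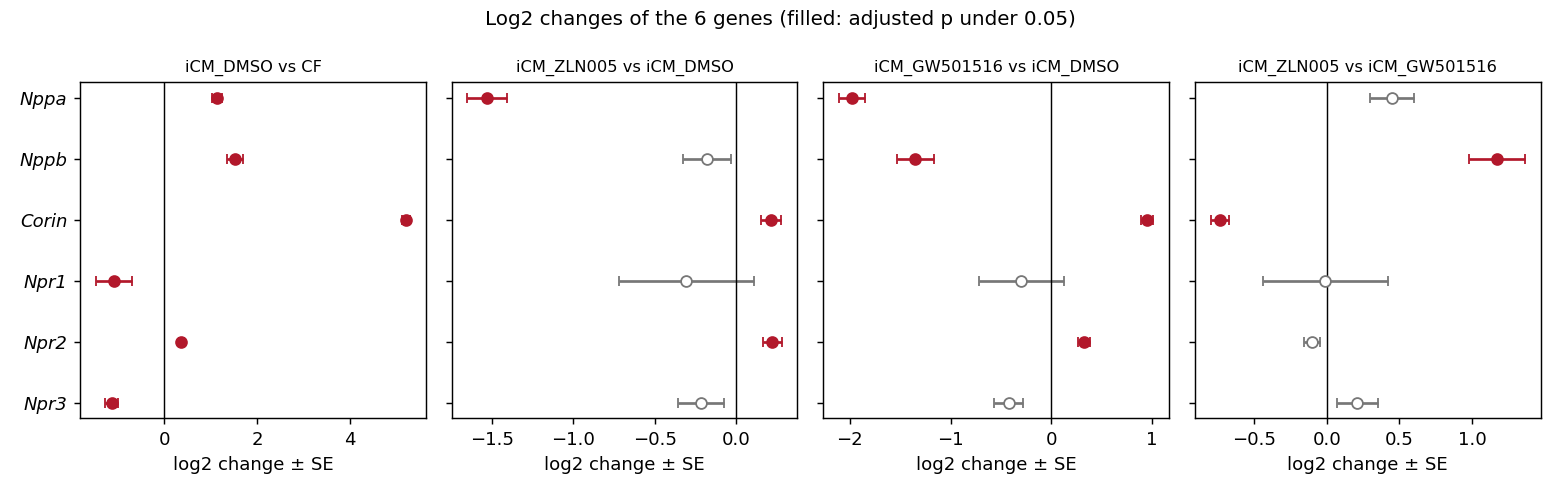
Log2 change of each gene (points, bars for ± 1 standard error of the fit, horizontal axes of different range) in iCM with DMSO against CF, in each compound against DMSO and in ZLN005 against GW501516. Filled points have an adjusted p under 0.05. Corin lies to the positive side in the first 3 comparisons at 5.22, 0.21 and 0.95, and Nppa on the negative side with both compounds at -1.53 and -1.98.

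In counts, iCM with DMSO differed from CF in all 6 genes, Nppa, Nppb, Corin and Npr2 higher and Npr1 and Npr3 lower, where 39.3% of all tested genes were called, 19.9% higher and 19.5% lower. ZLN005 against DMSO gave 3 of 6, Corin and Npr2 higher and Nppa lower, beside 15.5% of all genes, 6.64% higher and 8.84% lower. GW501516 against DMSO gave 4 of 6, Corin and Npr2 higher and Nppa and Nppb lower, beside 14.8% of all genes, 7.8% higher and 6.96% lower. Against CF directly, 6 of 6 were called with ZLN005, 3 in each direction, beside 50.1% of all genes (24% higher, 26% lower). With GW501516 5 of 6 were called, 2 higher and 3 lower, beside 49.9% (23.9% higher, 25.9% lower). Nppb was the gene not called with GW501516. The Npr1 calls depended on single libraries. For ZLN005 against CF, at -1.39 ± 0.40 (edgeR adjusted p = 0.0138), the call was lost without CF replicate 2 (0.0659) and without either ZLN005 replicate (0.0691 and 0.0728). For GW501516 against CF, at -1.39 ± 0.40 (edgeR adjusted p = 0.0154), it was lost without CF replicate 2 (0.0742), without GW501516 replicate 2 (0.114) and with the compared groups alone (0.0748). Alternatives gave adjusted p from 0.0012 to 0.0728 and from 0.0015 to 0.114. The compounds share the DMSO libraries, so their comparisons with DMSO are not independent.

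The compounds were compared with each other at the same day, at doses that the labels do not give. Of the 6 genes, 2 were called, beside 5.06% of all tested genes (1.54% higher with ZLN005, 3.52% lower). Corin was lower with ZLN005 than with GW501516 by 0.74 ± 0.06 on the log2 scale (95% interval of the difference -0.87 to -0.60, edgeR adjusted p = 6.7e-05). Nppb was higher with ZLN005 by 1.17 ± 0.19 (0.74 to 1.60, edgeR adjusted p = 0.0054). The Nppb call was lost in limma-voom (0.0940), without the CM libraries (0.0723), without ZLN005 replicate 2 (0.0823) and without GW501516 replicate 2 (0.0738), and alternatives gave adjusted p from 3.9e-05 to 0.0940. The other 4 genes did not pass the threshold. Nppa differed by 0.45 ± 0.15 (0.11 to 0.78, edgeR adjusted p = 0.147), Npr3 by 0.21 ± 0.14 (-0.11 to 0.53, edgeR adjusted p = 0.523), Npr2 by -0.10 ± 0.06 (-0.23 to 0.03, edgeR adjusted p = 0.419) and Npr1 by -0.01 ± 0.43 (-0.96 to 0.94, edgeR adjusted p = 0.998). Nppa was called in DESeq2, without the filter and without the CF libraries, and Npr3 without the CF libraries and with the compared groups alone, so these intervals do not show that the compounds act alike.

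Primary cardiomyocytes showed how far the iCM groups stood from heart muscle in each gene. CM differed from CF in 5 of 6 genes, 3 higher and 2 lower, beside 70.7% of all genes (34.5% higher, 36.2% lower), with Npr1 not called at a log2 difference of 0.56 ± 0.37 (edgeR adjusted p = 0.198), although without CF replicate 2 it was called (0.0423). All 6 genes differed between CM and iCM with DMSO, 4 higher and 2 lower in CM, beside 69.7% of all genes (34.1% higher, 35.7% lower). The same held against ZLN005, 4 higher and 2 lower, beside 67.9% (34.2% higher, 33.7% lower), and against GW501516, 3 higher and 3 lower, beside 67.2% (33.7% higher, 33.5% lower). Nppa was higher in CM than in iCM with DMSO by 8.58 ± 0.12 on the log2 scale (edgeR adjusted p = 9.0e-12), and Nppb by 9.16 ± 0.09 (edgeR adjusted p = 1.7e-12). By size these were the 8th and the 6th of the 15740 fitted changes on the rising side. With the compounds the gap in Nppa grew to 10.11 ± 0.13 for ZLN005 and 10.56 ± 0.14 for GW501516, and that in Nppb to 9.34 ± 0.10 and 10.51 ± 0.11. The growth is the compound's own difference from DMSO given above, which for Nppb with ZLN005 was not called.
For Corin the gaps were of another size, CM being higher than iCM with DMSO by 0.41 ± 0.06 (edgeR adjusted p = 0.00017). CM was higher than iCM with ZLN005 by 0.19 ± 0.06 (edgeR adjusted p = 0.0177), a call lost with plain library totals (0.163), without ZLN005 replicate 1 (0.0732), ZLN005 replicate 2 (0.0842) or CM replicate 1 (0.0969), over a range of 0.00446 to 0.163. Npr1 was higher in CM than in iCM with DMSO by 1.65 ± 0.39 (edgeR adjusted p = 0.0033). Npr2 was lower by 1.55 and Npr3 by 1.67, the CM minus DMSO values being -1.55 ± 0.06 and -1.67 ± 0.15.

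Per kilobase of exon, the order of the genes differed between cells. The lengths take in all exon bases, also those shared with genes on the opposite strand. These were 532 of 865 in Nppa and 0 of 781 in Nppb, and the values were not corrected for them. In CM, Nppa stood at 6005 CPM per kilobase and Nppb at 1200, followed by Npr2 at 7.46, Corin at 6.65, Npr3 at 2.06 and Npr1 at 0.483. In CF, Npr2 at 17.0 and Npr3 at 14.4 CPM per kilobase led, ahead of Nppa at 7.11, Nppb at 0.723, Npr1 at 0.329 and Corin at 0.134. In iCM with DMSO, Npr2 at 21.9 and Nppa at 15.7 were followed by Npr3 at 6.55, Corin at 5.01, Nppb at 2.09 and Npr1 at 0.155. In every group the CNP receptor and the clearance receptor thus had more transcript per length than Npr1.

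The peptide genes were set beside 10 cardiomyocyte markers in the same libraries. As a percent of CM, the median marker was at 0.551% in CF, and the iCM groups were at 7.11% after DMSO, 12.5% after ZLN005 and 14.0% after GW501516. Nppa stood at 0.118%, 0.262%, 0.0911% and 0.0664% in the same order, and Nppb at 0.0602%, 0.174%, 0.151% and 0.0682%. Myh6 had means of 365 CPM with DMSO, 957 CPM with ZLN005 and 1530 CPM with GW501516, so it went up with the compounds as Nppa went down. For each 1000 Myh6 counts there were 145 and 161 Nppa counts in CF, above every iCM group, and 517 and 560 in CM. The iCM libraries had 33.1 and 41.4 after DMSO, 5.51 and 4.43 after ZLN005, and 2.15 and 2.35 after GW501516. Against DMSO, 8 of the 10 markers were called higher with ZLN005 and 7 with GW501516, and 0 were called lower. Of all genes, 6.64% and 7.8% were called higher. Tnnt2 was the highest of the 10 in the iCM groups, at 66.8% of CM with DMSO, 102% with ZLN005 and 98.3% with GW501516. Nkx2-5, a cardiac homeobox factor, was the lowest, at 1.49% of CM with DMSO, 0.392% with ZLN005 and 0.410% with GW501516.

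**Figure D4:**
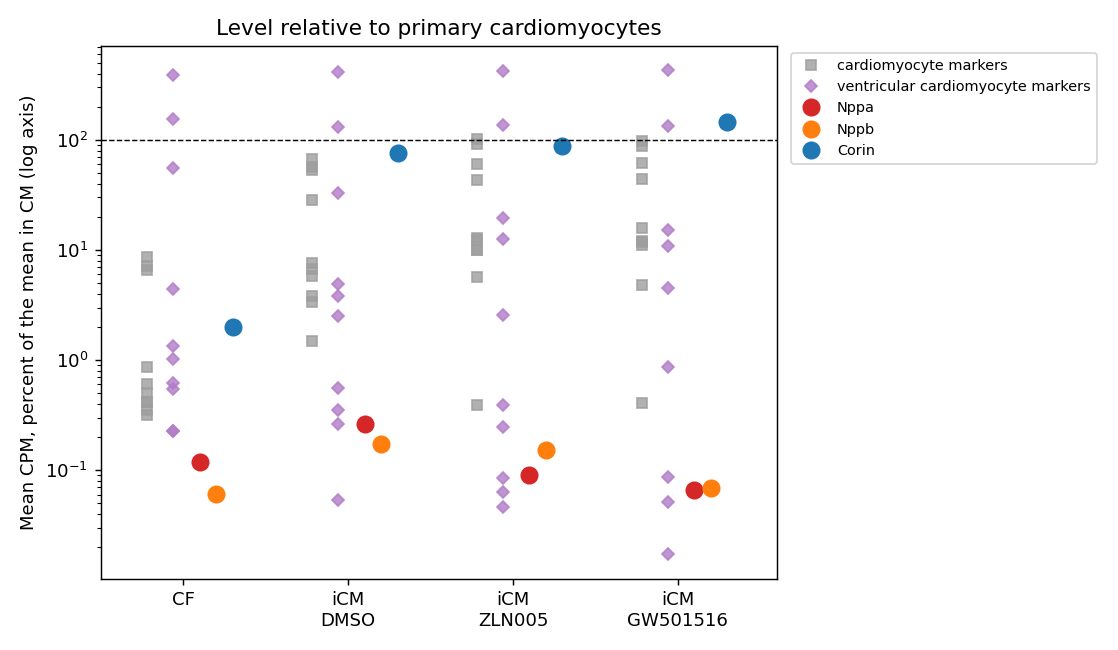
Mean level of Nppa, Nppb and Corin (circles), of 10 cardiomyocyte markers (squares) and of 10 ventricular markers (diamonds) as a percent of the mean in CM, in CF and the 3 iCM groups. The log axis leaves out values of 0, and the dashed line is the CM level. Nppa and Nppb lie below 0.3% and Corin between 75.4% and 146% in the iCM groups.

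Chamber markers did not move as a single list, and the ventricular markers Fhl2 and Lbh were higher in CF and iCM than in CM. Of all tested genes, 6.64% rose and 8.84% fell with ZLN005, and 7.8% rose and 6.96% fell with GW501516. Among 10 ventricular markers, 1 rose and 3 fell with ZLN005, and 2 rose and 3 fell with GW501516. Over the alternatives 2 to 5 were called for ZLN005, the low value without ZLN005 replicate 2, and 3 to 6 for GW501516, the low value in limma-voom. Hopx rose with both compounds, by 1.33 ± 0.14 and 1.15 ± 0.14 (edgeR adjusted p = 0.00019 and 0.00053). Myh7 rose with GW501516, by 0.85 ± 0.08 (edgeR adjusted p = 0.00010). Myl2 and Myl3, the ventricular myosin light chains, fell beside Nppa. Myl2 had means of 5.30 CPM with DMSO, 1.28 with ZLN005 and 1.31 with GW501516. Its falls were 2.02 ± 0.21 and 2.01 ± 0.22 (edgeR adjusted p = 0.00015 and 0.00022). Myl3 fell by 2.16 ± 0.39 and 2.37 ± 0.43 (edgeR adjusted p = 0.0048 and 0.0050), but without ZLN005 replicate 2 the first call was lost (0.0766), and the second was lost in limma-voom and without either GW501516 replicate (highest adjusted p 0.0520). Of 16 atrial markers, 8 rose with each compound, among them Sln (sarcolipin) by 0.74 ± 0.05 with ZLN005 and Myl7 (the atrial myosin light chain) by 0.93 ± 0.07 with GW501516, and 1 fell with ZLN005 and 2 with GW501516. Without DMSO replicate 2, 5 atrial markers in all were called for GW501516. Bmp10, an atrial growth factor, stood at 166 CPM in CM and below 0.1 CPM elsewhere. The summed level of 14 macrophage and leukocyte markers was 875 to 912 CPM after DMSO, 120 to 123 CPM after ZLN005 and 120 to 122 CPM after GW501516. It moved with the compounds as Nppa and Myl2 did, and its part in the result was not tested. It was 30.5 to 31.8 CPM in CM, where Nppa was highest.

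Beyond the members, 9 tested genes process or clear the peptides or encode other ligands. Among them, Nppc passed the filter through the CF libraries alone, so its lower level elsewhere was set by the filter. Nppc was kept among the 9, so the counts and the median against CF include a gene set by that filter. Against CF, iCM with DMSO had 3 of the 9 higher and 5 lower, beside 19.9% and 19.5% of all genes. The median log2 change was -1.23 against -0.01 over all genes. Furin, a convertase that cuts the BNP precursor, rose by 0.66 ± 0.05 (edgeR adjusted p = 9.6e-07), and Ide, the insulin-degrading enzyme, by 0.64 ± 0.05 (edgeR adjusted p = 4.0e-06). Pcsk6, the convertase that activates Corin, fell by 1.23 ± 0.06 (edgeR adjusted p = 6.0e-08). It was lower again with ZLN005, by 1.11 ± 0.06, and with GW501516, by 0.64 ± 0.06 (edgeR adjusted p = 2.2e-06 and 9.3e-05), and lowest in CM, with means of 185 CPM in CF, 78.6 after DMSO, 36.4 after ZLN005, 50.3 after GW501516 and 12.3 in CM. Pcsk6 was thus higher in CF, where Corin was lowest, than in any other group. Over the list, 1 gene rose and 2 fell with ZLN005 (median -0.01), beside 6.64% and 8.84% of all genes. With GW501516 2 rose and 1 fell (median 0.14), beside 7.8% and 6.96%. With the compared groups alone 5 genes were called for ZLN005. CM had 3 higher and 4 lower than iCM with DMSO, beside 34.1% and 35.7% of all genes. Among the higher was Mme, the gene of the peptide-degrading enzyme neprilysin, by 2.27 ± 0.30 (edgeR adjusted p = 5.3e-05). Ostn, whose product osteocrin binds NPR-C, was not tested, at 0 to 8 counts.

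Of 21 genes that make, use or break down cyclic GMP, 3 were higher and 11 lower in iCM with DMSO than in CF. Their median log2 change was -0.50, and of all genes 19.9% were higher and 19.5% lower. Gucy1a1 and Gucy1b1, the subunits of the nitric oxide receptor, fell by 2.34 ± 0.06 and 0.71 ± 0.06 (edgeR adjusted p = 3.8e-10 and 7.5e-06). The phosphodiesterases Pde1a and Pde3a fell by 1.45 ± 0.05 and 0.91 ± 0.08 (edgeR adjusted p = 3.7e-09 and 4.3e-06). With ZLN005, 4 rose and 2 fell (median 0.07), beside 6.64% and 8.84% of all genes. With GW501516, 6 rose and 1 fell (median 0.12), beside 7.8% and 6.96%. Gucy1a1 was among the risers with both, by 0.51 ± 0.06 and 0.43 ± 0.06 (edgeR adjusted p = 0.00023 and 0.00072). The list's counts were sensitive to the libraries used, with 3 to 11 genes called for ZLN005 over the alternatives, the low value without DMSO replicate 2, and 3 to 10 for GW501516, the low value without DMSO replicate 1. CM had 8 higher and 7 lower than iCM with DMSO (median -0.19), beside 34.1% and 35.7% of all genes. The cyclic GMP-dependent kinases moved apart there, Prkg1 lower by 1.56 and Prkg2 higher by 3.29 ± 0.16, the CM minus DMSO value of Prkg1 being -1.56 ± 0.07 (edgeR adjusted p = 9.5e-09 for Prkg1 and 2.9e-08 for Prkg2).

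Among 31 transcription regulators known to act on Nppa or Nppb, 6 were higher and 15 lower in iCM with DMSO than in CF. Their median log2 change was -0.18, and of all genes 19.9% were higher and 19.5% lower. The list does not separate activators from repressors, so its counts and medians have no set direction for Nppa or Nppb. With the compared groups alone 14 genes of the list were called, against 21. Nr2f2 was among the lower ones, at -1.31 ± 0.08 (edgeR adjusted p = 4.1e-07). The higher ones include the reprogramming factors Tbx5, by 7.44 ± 0.07, Mef2c, by 2.30 ± 0.08, and Gata4, by 1.28 ± 0.05 (edgeR adjusted p = 9.1e-13, 3.1e-09 and 1.7e-08), where reads of the introduced and the native genes could not be separated. Their mean levels in iCM with DMSO were 522, 456 and 379 CPM, against 105, 160 and 203 CPM in CM. With ZLN005, 6 rose and 2 fell (median 0.03), beside 6.64% and 8.84% of all genes. With GW501516, 7 rose and 2 fell (median -0.07), beside 7.8% and 6.96%. Over the alternatives the calls ranged from 5 to 13 with ZLN005, the low value without DMSO replicate 2, and from 4 to 13 with GW501516, the low value without DMSO replicate 1. The immediate early factors led, Egr1 rising by 2.05 ± 0.05 and 1.90 ± 0.05 (edgeR adjusted p = 9.2e-09 and 1.0e-08) and Fos by 2.38 ± 0.15 and 2.14 ± 0.15 (edgeR adjusted p = 5.9e-06 and 1.3e-05). Srf, the serum response factor, rose by 0.63 ± 0.08 and 0.68 ± 0.08 (edgeR adjusted p = 0.00077 and 0.00050). Foxp1 was lower with ZLN005 than with DMSO, at -0.40 ± 0.06 (edgeR adjusted p = 0.0023). In CM, 22 were higher and 6 lower than in iCM with DMSO (median 0.82), beside 34.1% and 35.7% of all genes. Myocd, the coactivator myocardin, was higher in CM by 3.77 ± 0.13 (edgeR adjusted p = 1.9e-09).

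The peptide genes are usually read together with other fetal and stress genes of the heart, of which 17 were tested. The list shares genes with the marker lists, among them Myh6 (cardiomyocyte), Myh7 (ventricular), Myl4 and Mybphl (atrial) and Postn (fibroblast). Its counts are thus not of fetal and stress genes alone. Myh6 rose by 3.19 ± 0.07 from CF to iCM with DMSO. It rose further by 1.39 ± 0.06 with ZLN005 and 2.07 ± 0.06 with GW501516, and was higher in CM than with DMSO by 4.72 ± 0.07. In iCM with DMSO 15 of the 17 were higher and 1 lower than in CF (median log2 change 1.29), beside 19.9% and 19.5% of all genes. Higher were Xirp2, an actin-binding protein of intercalated discs, by 5.39 ± 0.18 (edgeR adjusted p = 4.1e-09), and others. Myl4, the fetal and atrial essential light chain, was higher by 6.20 ± 0.18 (edgeR adjusted p = 1.3e-09). Of all tested genes, 6.64% rose and 8.84% fell with ZLN005, and 7.8% rose and 6.96% fell with GW501516. In the list, 6 rose and 1 fell with ZLN005 (median 0.05). Ankrd1, a stretch-responsive ankyrin repeat protein, rose by 0.65 ± 0.11 (edgeR adjusted p = 0.0033). With GW501516 8 rose and 4 fell (median 0.30), including Myh7, the beta myosin heavy chain, by 0.85 ± 0.08 (edgeR adjusted p = 0.00010), although 3 to 14 calls were counted over the alternatives, the low value without GW501516 replicate 1. Nppa, not counted in this list, fell with both compounds. In CM 13 were higher and 1 lower than in iCM with DMSO (median 0.97), beside 34.1% and 35.7% of all genes. Tnni1, the slow skeletal troponin I of the fetal heart, was higher in CM by 6.67 ± 0.13 (edgeR adjusted p = 4.3e-11).

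The genes whose pattern over the 10 libraries was most like that of a member were found by Pearson correlation of log2 CPM among 12173 genes. The libraries share groups, so the values describe 5 group levels more than 10 independent points. For Nppa they were Nras (0.999), Mylk3 (0.9974) and Septin6 (0.9953), and for Nppb Hmgb3 (0.9973), Ndrg4 (0.997) and Ubqln4 (0.9968). For Corin they were Asb11 (0.997), Acsl1 (0.9934) and Myom2 (0.9933), which encode an ankyrin repeat and SOCS box protein, a long-chain acyl-CoA synthetase and an M-band protein of muscle. Asb11 followed the order of Corin group by group, with means of 0.161 CPM in CF, 5.66 after DMSO, 8.07 after ZLN005, 12.03 after GW501516 and 9.15 in CM. For Npr1 they were Mxd3 (0.9727), Lpcat4 (0.9674) and Lnx2 (0.9647), for Npr2 Ccdc68 (0.9982), Ifi35 (0.9961) and Ypel5 (0.9958), and for Npr3 Dlg3 (0.9932), St3gal1 (0.9926) and Cmtm4 (0.9905). Such values were common, with 697 genes above 0.95 for Nppa, 815 for Nppb and 164 for Corin. For Npr1, Npr2 and Npr3 there were 11, 716 and 278. A correlation does not measure the size of a step between groups. Nras had means of 99.9 to 111 CPM outside CM and 190 CPM in CM, whereas Nppa had 3.45 to 13.6 CPM and 5194.5 CPM. By Spearman correlation 1 of these 18 genes stayed among the 3 nearest of its member, for Npr2.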

How the data were processed

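Polyadenylated RNA was extracted with TRIzol and made into TruSeq libraries, per the labels' protocols. The table holds the authors' raw counts per gene symbol, made with Trimmomatic 0.36, HISAT2 on mm10, SAMtools and featureCounts of Subread 1.5.1, per the submitters' processing notes. The sources used here give no annotation, strand setting or treatment of multiply mapped reads. All 10 libraries were fitted in 1 model of 5 groups with edgeR 4.0.16 (R 4.3.3): TMM scaling, filterByExpr (minimum count 10), quasi-likelihood tests, and Benjamini-Hochberg adjustment over 15740 genes, called at 0.05. A standard error is the size of the log2 change divided by the root of its F value, and intervals are at 95%. The pipeline was tested on simulated data. Members, lists and tests were chosen with earlier results of these data known. Named genes are the 6 members, up to 4 called genes with the smallest p per list and comparison, and for each member the 3 genes with the highest correlation (prior count 2, mean CPM of at least 1, no predicted names); of the list genes, a part is printed. Nppc, Ostn, Bmp10, Nkx2-5, Tnnt2, Fhl2 and Lbh are named outside this rule, after their values were seen. Exon lengths and coordinates are from GENCODE, promoters from RefSeq, both on GRCm38. Alternatives were DESeq2 1.42.0, limma-voom (limma 3.58.1), DESeq2 size factors, plain totals, other filters, fewer groups, a replicate block, a threshold of 0.01 and leaving out each library. Replicates had correlations of log2 CPM of 0.984 to 0.993, the lowest in CF. Between the counts of a pair, the chi-square per degree of freedom was 58.7 in CF, against 3.32 to 6.32 in the other groups. Figures used matplotlib 3.10.9.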

Additional observations from a re-analysis of the deposited data

How the results depend on the processing

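Over 792 values of the 6 genes under the alternatives, 734 kept their direction and side of the threshold, 39 lost and 13 gained a call, and 6 reversed, none of them called. The members called for ZLN005 against DMSO numbered 3, and 1 at an adjusted p under 0.01 and without any of the 4 libraries compared (range 1 to 1). Those called for ZLN005 against GW501516 numbered 2, and 1 in limma-voom, 4 without the CF libraries, 1 without the CM libraries and 1 to 2 when a library was left out. The reversed log2 differences were Npr1 for GW501516 against DMSO (-0.97 to 0.15 when a library was left out), Npr1 for ZLN005 against GW501516 in limma-voom (0.084), with plain totals (0.049) and when a library was left out (-0.46 to 0.66), and Nppb for GW501516 against CF (-0.036 to 0.44 when a library was left out). The cause was not tested. Npr1 rests on 15 to 120 counts a library, which limits what can be detected.

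Same-numbered replicates showed no strong shared deviation (correlations from -0.0032 to 0.040 over 10 pairs of groups). The correlations alone do not tell whether the numbers pair the samples, which the labels do not state. With a replicate block the members called were 5 for DMSO against CF, 2 for ZLN005 against DMSO, 4 for GW501516 against DMSO and 2 between the compounds. Plain totals moved the median of all genes to -0.105 for CM against ZLN005, from -0.0068 with TMM, and moved 7 of 30 levels. Of 1584 list counts 140 moved, and of 1187 values for named genes 21 lost a call and 0 reversed.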
